A study of Mus musculus with 20 samples.

Results

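Ebf1, Pax5, Cd79a, Cd79b, Vpreb1, Igll1, Foxo1, Blnk, and Tcf3 are 9 genes of the program that turns a lymphoid progenitor into a B cell. They are 9 of the 21951 protein-coding genes of the annotation used here. For each gene, the ChIP-Seq peaks that overlapped its body extended by 30 kb on each side (its window) were read from 12 peak lists, which cover 3 histone marks in 4 genotypes. The windows held 498 of the 591292 peaks of the 12 lists. The rule uses gene names and no measured value, but the genes were picked with earlier results of these data known.

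The cells were Lin- bone marrow cells, which are what is left after cells carrying surface markers of mature blood lineages are depleted, at a purity above 80%. All 4 groups of mice were on a C57BL/6 background, of both sexes, carried the floxed alleles Ep300 fl/fl, and were injected with poly(I:C) as young adults. WT mice were Ep300 fl/fl without Cre, Ep300Δ/Δ mice (labelled p300 Knockout) were Mx1-Cre;Ep300 fl/fl, Tet2-/- mice (labelled Tet2 Knockout) were Ep300 fl/fl;Tet2-/-, and Ep300Δ/ΔTet2-/- mice (labelled p300 Tet2 Knockout) were Mx1-Cre;Ep300 fl/fl;Tet2-/-. Mx1-Cre is induced by interferon, for which poly(I:C) is the trigger, and is not restricted to blood cells. Ep300 encodes p300, an acetyltransferase that places H3K27ac, and Tet2 encodes an enzyme that oxidizes methylated cytosine in DNA. How many mice were pooled for a library, and their age at sampling, are not given in the labels.

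The B-cell program starts with E2A, the product of Tcf3, and FOXO1, the product of Foxo1, which act before commitment. EBF1 then specifies the lineage, and PAX5 commits cells to it. Igll1 and Vpreb1 encode the surrogate light chain that pairs with the heavy chain on pre-B cells, Cd79a and Cd79b encode the signaling chains of the pre-B and B cell receptors, and Blnk encodes the adaptor that carries their signal. H3K4me3 is mainly a promoter mark, H3K4me1 marks enhancers including those at rest, and H3K27ac marks promoters and enhancers in use.

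Each genotype and mark had 1 library. Differences between genotypes therefore have no replicate check, and no P value is given. The lists held 18327 to 29659 H3K27ac peaks, 90738 to 107392 H3K4me1 peaks, and 25012 to 27807 H3K4me3 peaks. The Ep300Δ/ΔTet2-/- list was the shortest for H3K27ac, and the Tet2-/- list was the longest for H3K4me3. Peak lists do not give sequencing depth, which is unknown here. Fold enrichment over the H3 library is the authors' value and was compared only within a list, as a rank: the percent of the list's peaks with a lower fold enrichment. In bulk chromatin, fewer cells of a type and less of a mark per cell cannot be told apart. All 12 lists held a promoter peak at both Ep300 and Tet2, so the peaks give no check of the deletions.

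Sequence is shown for the places where the lists differed at these genes, all in GRCm38. Capitals mark exact matches, on either strand, to 6 motifs: TCCCNNGGG (EBF), CAGCTG and CACCTG (E-boxes bound by E proteins such as E2A), GAGGAAGT (PU.1), TGTGGTT (RUNX), and GTAAACA (FOXO). The first set is the promoters whose H3K4me3 differed between genotypes, as the 250 bases before a start, read along the gene. They are chr11:44617067-44617316 on the plus strand for Ebf1, chr16:16863986-16864235 on the minus strand for Igll1, chr19:40994536-40994785 on the minus strand for Blnk, and chr4:44704007-44704256 on the minus strand for Pax5. The Igll1 window ends at the RefSeq start, and the others end at GENCODE starts. The Pax5 window lies before an internal start, within an exon of the noncoding antisense transcript 5730488B01Rik.
Ebf1 promoter: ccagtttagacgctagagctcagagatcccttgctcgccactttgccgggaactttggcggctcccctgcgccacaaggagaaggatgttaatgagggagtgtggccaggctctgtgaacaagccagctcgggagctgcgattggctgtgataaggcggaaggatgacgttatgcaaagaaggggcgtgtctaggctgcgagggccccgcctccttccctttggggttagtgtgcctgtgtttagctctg
Igll1 promoter: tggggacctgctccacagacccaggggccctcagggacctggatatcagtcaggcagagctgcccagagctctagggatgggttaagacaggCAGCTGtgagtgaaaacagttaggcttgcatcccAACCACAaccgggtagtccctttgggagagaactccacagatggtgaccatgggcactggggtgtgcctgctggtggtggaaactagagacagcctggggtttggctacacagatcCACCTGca
Blnk promoter: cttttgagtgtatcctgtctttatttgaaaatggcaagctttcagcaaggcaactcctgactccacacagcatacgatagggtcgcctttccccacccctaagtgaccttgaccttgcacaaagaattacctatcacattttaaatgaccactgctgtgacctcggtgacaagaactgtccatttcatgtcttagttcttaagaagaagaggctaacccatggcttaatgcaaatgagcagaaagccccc
Pax5 promoter: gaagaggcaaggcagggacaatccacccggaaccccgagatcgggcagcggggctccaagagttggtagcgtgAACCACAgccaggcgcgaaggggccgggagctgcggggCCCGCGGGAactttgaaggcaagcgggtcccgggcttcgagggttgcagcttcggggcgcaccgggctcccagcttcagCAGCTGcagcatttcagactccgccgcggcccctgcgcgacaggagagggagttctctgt

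The Igll1 window held CAGCTG at bases 93 to 98, CACCTG at bases 243 to 248, and the RUNX motif at bases 127 to 133. The Pax5 window held the RUNX motif at bases 74 to 80, the EBF motif at bases 112 to 120, and CAGCTG at bases 191 to 196. None of the 6 motifs was in the printed Ebf1 or Blnk window. Of 32851 RefSeq promoter windows of the same length, 5.60% held the EBF motif, 13% CAGCTG, 17.2% CACCTG, 2.44% the PU.1 motif, 4.40% the RUNX motif, and 3.17% the FOXO motif. RefSeq promoters were matched for 8 of the 9 genes, 9 promoters in all, of which 6 held at least 1 motif. The share of all RefSeq promoters with at least 1 motif was not computed, so this count has no background. The EBF motif was in the Foxo1 promoter, and CACCTG was in those of Cd79a, Vpreb1, and Blnk, whose RefSeq start differs from the GENCODE start used above. Of the RefSeq promoters of Ebf1, 1 held the RUNX motif and the other none. No motif was in those of Tcf3 and Pax5, the latter at its first start.

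The second set is summits of H3K27ac regions that cover no start, as 201 bases centered on a summit, read along the plus strand. Igll1 upstream regions A (chr16:16864819-16865019) and B (chr16:16866079-16866279) lie between Igll1 and Vpreb1, within the 3000 bp of the Igll1 start that are counted as promoter here, and the Blnk upstream region (chr19:40998804-40999004) is the acetylated region with the highest rank in its list among those found in 1 genotype alone. These 3 are centered on WT summits. The Ebf1 intronic region (chr11:44897694-44897894) is centered on the summit of the Tet2-/- peak, the H3K27ac peak found in the Ebf1 window.
Igll1 upstream region A: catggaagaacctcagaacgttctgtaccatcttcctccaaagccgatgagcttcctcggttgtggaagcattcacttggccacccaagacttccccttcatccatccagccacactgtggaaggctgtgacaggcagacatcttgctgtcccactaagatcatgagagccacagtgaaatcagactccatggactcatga
Igll1 upstream region B: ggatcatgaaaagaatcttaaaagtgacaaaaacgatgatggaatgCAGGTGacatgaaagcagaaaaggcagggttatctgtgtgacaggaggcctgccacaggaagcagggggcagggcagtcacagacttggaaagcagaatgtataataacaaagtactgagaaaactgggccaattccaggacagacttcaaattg
Blnk upstream region: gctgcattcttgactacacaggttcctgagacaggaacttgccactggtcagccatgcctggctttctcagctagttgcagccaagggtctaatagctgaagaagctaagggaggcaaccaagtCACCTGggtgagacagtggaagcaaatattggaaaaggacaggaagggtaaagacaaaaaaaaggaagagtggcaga
Ebf1 intronic region: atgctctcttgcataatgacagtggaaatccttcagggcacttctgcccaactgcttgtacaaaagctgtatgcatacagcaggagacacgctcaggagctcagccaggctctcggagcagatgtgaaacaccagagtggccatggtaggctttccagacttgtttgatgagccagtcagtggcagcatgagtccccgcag

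CACCTG was in region B, at bases 47 to 52 in its reverse complement, and in the Blnk region, at bases 125 to 130. It was in 17.8% of 29659 summit windows of the WT H3K27ac list. Region A and the Ebf1 intronic region held none of the 6 motifs.

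By H3K4me3, the genes fell into those with a promoter peak in every genotype (Tcf3, Foxo1, Cd79b, and Vpreb1 at the start it shares with Top3b) and those whose promoter peaks were weak and not in every list (Ebf1, Pax5, Igll1, and Blnk) or absent (Cd79a). Counts of peaks in each window, and of those nearer to the gene's own start than to any other protein-coding start, are in the grid of peaks by gene, mark, and genotype.

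**Figure D1:**
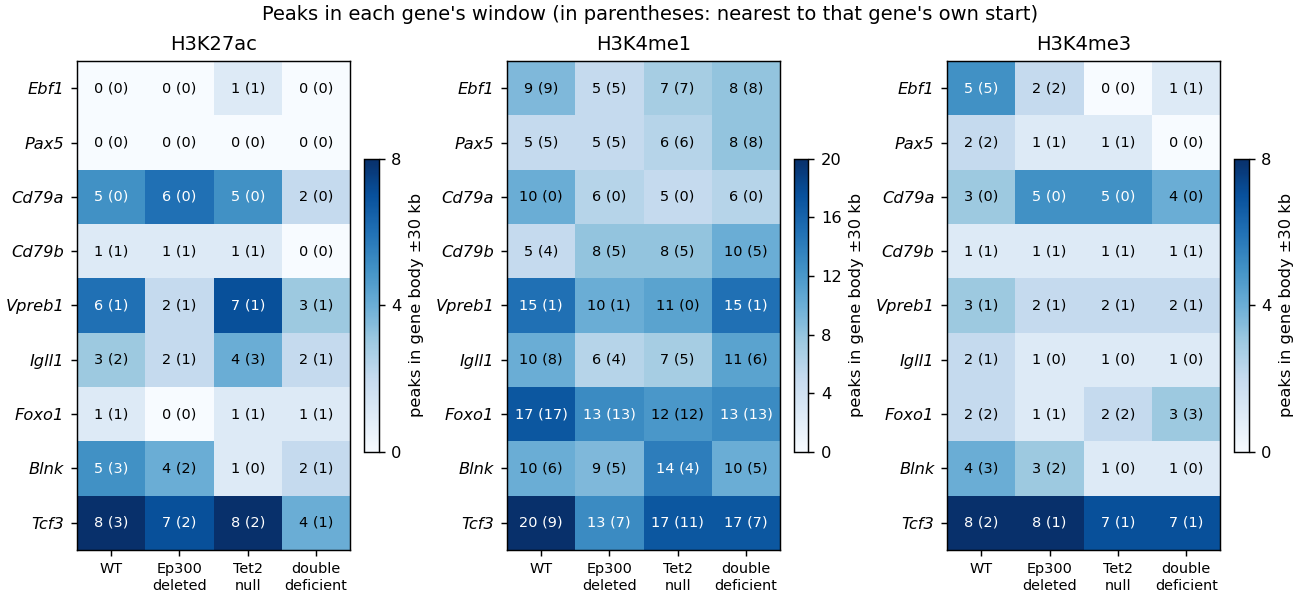
Number of peaks in the window of each gene (rows) in each genotype (columns) for 3 marks, with the number nearest to that gene's own start in parentheses and a color scale of its own for each mark; Ep300Δ/Δ, Tet2-/-, and Ep300Δ/ΔTet2-/- are drawn as Ep300 deleted, Tet2 null, and double deficient. Pax5 had no H3K27ac peak in any genotype, and Ebf1 had 5 H3K4me3 peaks in WT cells and none in Tet2-/- cells.

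H3K4me3 at the promoter of Ebf1, the lineage-specifying factor, was found in WT and Ep300Δ/Δ cells and not in the Tet2-/- or Ep300Δ/ΔTet2-/- lists. The promoter held 4 peaks in WT cells, 1 in Ep300Δ/Δ cells, and 0 in both others. They were weak: the strongest WT peak (chr11:44618224-44618699) had a fold enrichment of 7.83, above 31.8% of the WT list, and the Ep300Δ/Δ peak there had 3.53, above 4.98% of its list. The −log10 q of that Ep300Δ/Δ peak was 2.25. With a −log10 q of at least 5, promoter H3K4me3 at Ebf1 was left in WT cells alone. The other WT promoter peaks lay at chr11:44616818-44617200, overlapping the printed promoter sequence, at chr11:44619107-44619433, and at chr11:44619853-44620552. A further region 5817 bp upstream of the first Ebf1 start (chr11:44611055-44611500), in an annotated exon, was also found in WT and Ep300Δ/Δ cells alone. Its −log10 q in Ep300Δ/Δ cells was 2.49. The Ep300Δ/ΔTet2-/- list held 1 H3K4me3 peak in the Ebf1 window, at the far end of the gene (chr11:45008065-45008273).

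Blnk and Igll1 also had promoter H3K4me3 in WT cells and none in Tet2-/- or Ep300Δ/ΔTet2-/- cells. The Blnk promoter held 2 H3K4me3 peaks in WT cells, 2 in Ep300Δ/Δ cells, and none in the other lists. The peak over the start (chr19:40993486-40994299) had a fold enrichment of 8.64 in WT cells, above 34.8% of the list, and of 5.09 in Ep300Δ/Δ cells, above 18.0% of the list. Igll1 had a promoter H3K4me3 peak in WT cells alone (chr16:16863583-16863868), with a fold enrichment of 3.53, above 3.60% of the list.

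Pax5, the commitment factor, had H3K4me3 at its internal starts and none at its first start. The region at chr4:44703812-44704430 was present in WT, Ep300Δ/Δ, and Tet2-/- cells, with fold enrichments of 3.98, 8.53, and 3.38, above 6.66%, 36.1%, and 4.01% of the lists. A neighboring region (chr4:44703048-44703637) was present in WT cells alone, and the Ep300Δ/ΔTet2-/- list held neither. The nearest H3K4me3 peak to the RefSeq start was 6265 to 6433 bp away in the first 3 genotypes and 44994 bp away in Ep300Δ/ΔTet2-/- cells. Because the internal starts lie within the antisense transcript, peaks there cannot be assigned to Pax5 alone.

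**Figure D2:**
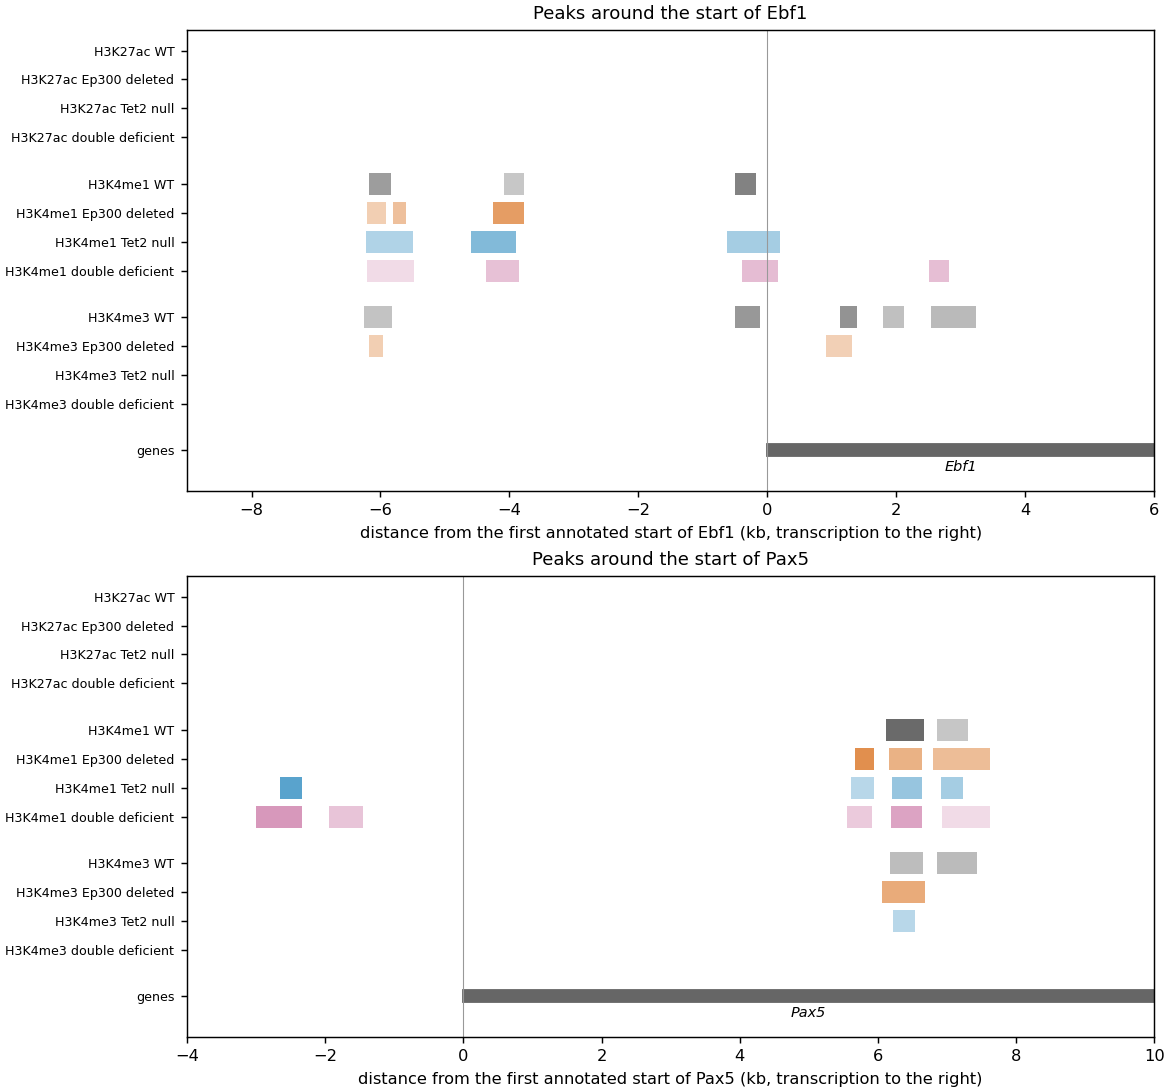
Peaks of the 12 lists around the first annotated starts of Ebf1 and Pax5, by distance in kb along the gene; each bar is a peak, colored by genotype and darker for a higher rank by fold enrichment within its list. H3K4me3 bars near the Ebf1 start appear in the WT and Ep300Δ/Δ rows alone, no H3K27ac bar appears in either map, and H3K4me1 bars appear in all 4 genotypes.

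Tcf3, Foxo1, Cd79b, and Vpreb1 had promoter H3K4me3 in all 4 lists. Tcf3 had peaks with fold enrichments of 53.0 in WT, 42.6 in Ep300Δ/Δ, 42.0 in Tet2-/-, and 21.5 in Ep300Δ/ΔTet2-/- cells, above 83.8%, 80.9%, 89.8%, and 65.6% of the lists. For Foxo1 the ranks were 74.8%, 79.8%, 68.9%, and 80.4% in the same order, and for Cd79b they were 56.3%, 62.0%, 76.9%, and 61.7%. The peak assigned to Vpreb1 (chr16:16870276-16872286) ranked at 72.9%, 76.3%, 80.6%, and 69.9%, but it covers a start of Top3b, a topoisomerase gene, and an annotated Vpreb1 start beside it. The RefSeq start of Vpreb1 was 1020 to 1081 bp from the nearest H3K4me3 peak in the 4 lists. Beyond these, Tcf3 had an H3K4me3 region at an internal start (chr10:80421647-80422213) in WT cells alone, above 4.70% of the list, and Foxo1 had one 10230 bp upstream (chr3:52257833-52258106) in Ep300Δ/ΔTet2-/- cells alone, with a fold enrichment of 3.74. Cd79a had no H3K4me3 peak at its promoter in any list, and the nearest was 4298 to 4761 bp away, at the promoter of Arhgef1.

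**Figure D3:**
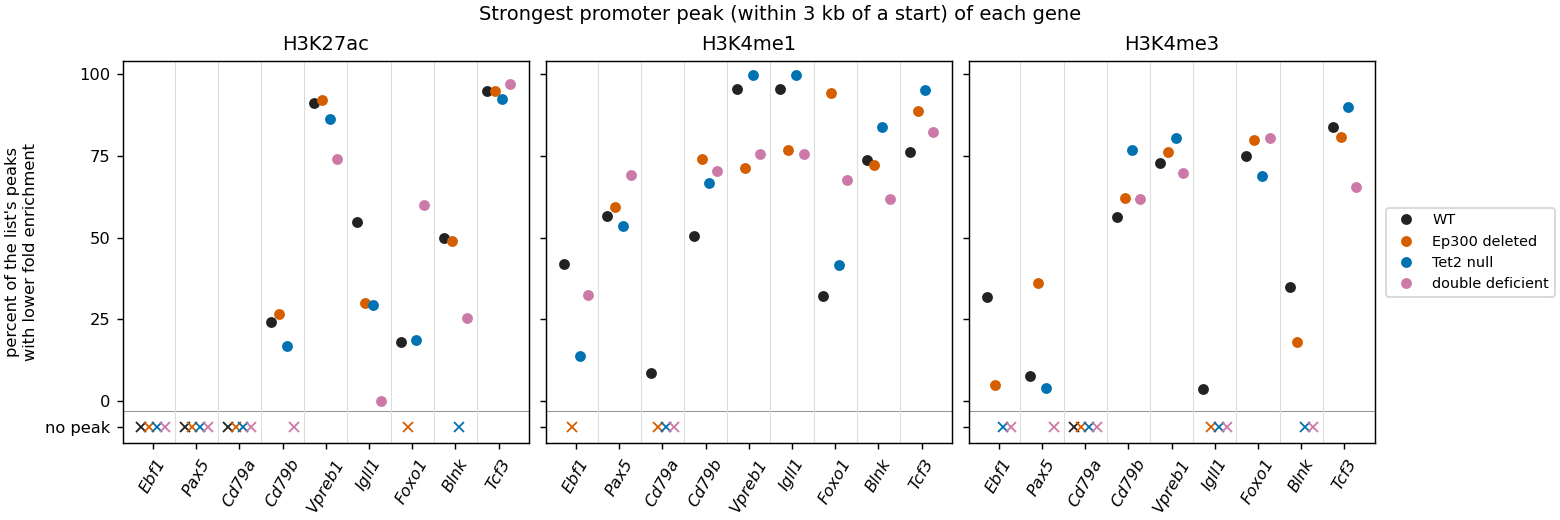
Rank by fold enrichment, within its own list, of the strongest peak within 3 kb of a start of each gene, for 3 marks; circles are peaks colored by genotype and crosses mark lists with no promoter peak. For H3K4me3, Ebf1, Igll1, and Blnk have crosses in Tet2-/- and Ep300Δ/ΔTet2-/- cells, whereas Cd79b, Vpreb1, Foxo1, and Tcf3 have circles above 56% in all genotypes.

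Counted by gene, 8 of the 9 had an H3K4me3 promoter peak in WT, 7 in Ep300Δ/Δ, 5 in Tet2-/-, and 4 in Ep300Δ/ΔTet2-/- cells. Over 21924 protein-coding genes the shares with one were 61.9%, 63.1%, 62.3%, and 62.6% in the same order. From WT to Tet2-/- cells, 3 of 8 (Ebf1, Igll1, and Blnk) had no promoter peak in the second list, against 1.49% of the 13562 protein-coding genes with a WT promoter peak. Read only against genes with weak WT promoters (the strongest peak in the lowest 35% of the list by fold enrichment), it was 3 of 4 against 15.5% of 1203 genes. From WT to Ep300Δ/Δ cells it was 1 of 8 (Igll1) against 1.41%, and from Tet2-/- to Ep300Δ/ΔTet2-/- cells 1 of 5 (Pax5) against 1.52%. Of those 4 genes with weak WT promoters, 1 had no promoter peak in Ep300Δ/Δ cells, against 13.4%, and all 4 had none in Ep300Δ/ΔTet2-/- cells, against 17.5%. The weak stratum was set after the values were seen, and with 4 genes its share has a wide counting error. Within the stratum, genes were not matched further by the strength of their peaks.

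Counted by region, 18 H3K4me3 regions were nearest to a start of the 9 genes, of which 7 were found in WT cells alone, 4 in WT and Ep300Δ/Δ cells, 1 in all genotypes but Ep300Δ/ΔTet2-/-, 4 in all 4, and 2 in Ep300Δ/ΔTet2-/- cells alone. Over the whole genome, regions found in WT cells alone were 5.41% and those shared by WT and Ep300Δ/Δ cells alone were 1.68% of 30095. Those in all genotypes but Ep300Δ/ΔTet2-/- were 1.70%, those in all 4 were 64.1%, and those in Ep300Δ/ΔTet2-/- cells alone were 4.05%. Of the 12 WT peaks nearest these genes that lay in the lowest 35% of the WT list, 11 had no overlapping peak in Tet2-/- cells, against 29.3% of the 9223 such WT peaks genome-wide. In Ep300Δ/Δ cells 7 of the 12 had none, against 39.2%, and in Ep300Δ/ΔTet2-/- cells all 12 had none, against 38.4%. The 12 peaks come from 5 genes, and the 5 at Ebf1 lie near one another, so they are not independent of one another. Their ranks in the WT list ran from 2.88% to 34.8%, most of them at or below 7.87%. The stratum is therefore not matched to them in strength. Whether the excess holds against equally weak peaks was not tested.

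H3K27ac was nearly absent from the windows of Ebf1 and Pax5, which specify and commit the lineage. Pax5 had no H3K27ac peak in any of the 4 lists, and Ebf1 had 1, the Tet2-/- peak in an intron. The peak (chr11:44897641-44897925) lay 14213 bp from the nearest annotated start, with a fold enrichment of 4.16, above 18.2% of the list, and H3K4me1 covered it in all 4 genotypes. The window of Ebf1 is 450.8 kb long and that of Pax5 245.7 kb, whereas windows with no H3K27ac peak made up 33.8% of protein-coding genes in WT, 37.0% in Ep300Δ/Δ, 34.3% in Tet2-/-, and 37.3% in Ep300Δ/ΔTet2-/- cells. Cd79a likewise had none at its promoter, and the 5 acetylated regions in its window were nearest to Rps19, a ribosomal protein gene, and Arhgef1, a regulator of small GTPases.

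Tcf3, whose product E2A acts before commitment, carried the strongest acetylation. The peak over its start (chr10:80433666-80434486) had fold enrichments of 27.7 in WT, 21.3 in Ep300Δ/Δ, 21.4 in Tet2-/-, and 31.9 in Ep300Δ/ΔTet2-/- cells, above 94.9%, 94.8%, 92.5%, and 97.1% of the lists. It was near the top of all 4 lists. A second promoter region (chr10:80432730-80433266) was present in all but Ep300Δ/ΔTet2-/- cells, above 39.8%, 24.5%, and 2.48% of the lists, and another at an internal start (chr10:80421081-80422286) in WT cells alone, above 7.34%. Foxo1 had a region beside its start (chr3:52267960-52268293) in Tet2-/- and Ep300Δ/ΔTet2-/- cells, above 18.7% and 59.9% of the lists, and another 1570 bp into the gene (chr3:52269906-52270092) in WT cells alone, above 18.1%. No H3K27ac peak lay in the Foxo1 window in Ep300Δ/Δ cells.

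The receptor and surrogate light chain genes had weaker acetylation that differed between lists. At Cd79b, the promoter region (chr11:106314134-106314810) was above 24.0% of the list in WT, 26.5% in Ep300Δ/Δ, and 16.8% in Tet2-/- cells, and had no peak in Ep300Δ/ΔTet2-/- cells. Upstream of Igll1, region A (chr16:16864776-16865399, 791 bp from the start) had fold enrichments of 7.29 in WT, 4.47 in Ep300Δ/Δ, and 4.85 in Tet2-/- cells, above 54.7%, 30.1%, and 29.4% of the lists, and no peak in Ep300Δ/ΔTet2-/- cells. Region B (chr16:16865544-16866699) was above 50.2% in WT and 25.4% in Tet2-/- cells, had no peak in Ep300Δ/Δ cells, and in Ep300Δ/ΔTet2-/- cells was among the weakest of the list, with a fold enrichment of 2.03 and a −log10 q of 0.22. The rank was highest in WT cells at both regions. A Tet2-/- region downstream of Igll1 (chr16:16856581-16856929) was above 12.8% of that list and in no other. The region over the start shared by Vpreb1 and Top3b (chr16:16870378-16871718) was in all 4 lists, above 91.3%, 92.2%, 86.4%, and 74.1%.

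Blnk, the adaptor gene, had 3 acetylated regions in WT, 2 in Ep300Δ/Δ, none in Tet2-/-, and 1 in Ep300Δ/ΔTet2-/- cells. The region over its start (chr19:40993570-40994217) had fold enrichments of 6.56 in WT, 5.81 in Ep300Δ/Δ, and 4.92 in Ep300Δ/ΔTet2-/- cells, above 48.4%, 48.9%, and 25.3% of the lists, and no peak in Tet2-/- cells. The region 1313 bp upstream (chr19:40995848-40996461) was present in WT and Ep300Δ/Δ cells, above 49.9% and 39.9%. The Blnk upstream region printed above (chr19:40998456-40999043), 3921 bp from the start, was present in WT cells alone, with a fold enrichment of 9.20, above 66.7% of the WT list, and a −log10 q of 15.6. H3K4me1 overlapped this region in all 4 genotypes. The 1 Tet2-/- peak in the Blnk window was nearest to Dntt.

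**Figure D4:**
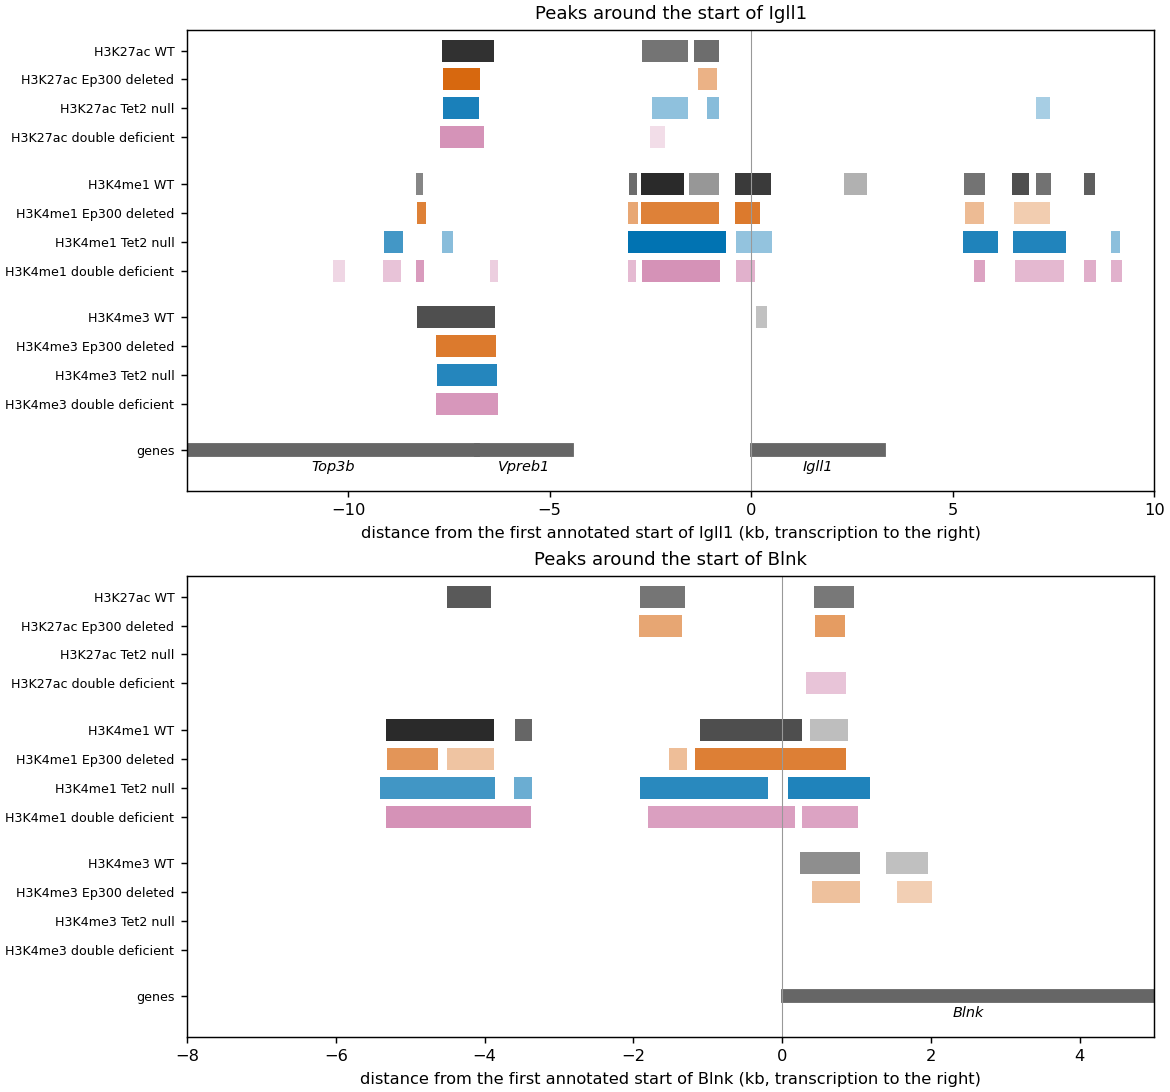
Peaks of the 12 lists around the first annotated starts of Igll1 and Blnk, by distance in kb along the gene; each bar is a peak, colored by genotype and darker for a higher rank by fold enrichment within its list. H3K4me1 bars cover the upstream regions of both genes in all 4 genotypes, whereas the H3K27ac bar farthest upstream of Blnk appears in WT cells alone and the Tet2-/- row has no H3K27ac bar at Blnk.

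Of the 9 genes, 6 had an H3K27ac promoter peak in WT cells and 5 in each of the other genotypes. Over 21924 protein-coding genes the shares were 47.3% in WT, 44.9% in Ep300Δ/Δ, 46.4% in Tet2-/-, and 43.1% in Ep300Δ/ΔTet2-/- cells. With lists of equal size by −log10 q the counts for the 9 genes were 4 in WT, 5 in Ep300Δ/Δ, 3 in Tet2-/-, and 5 in Ep300Δ/ΔTet2-/- cells, so their order is not stable. From WT to Ep300Δ/Δ cells, 1 of 6 (Foxo1) had no promoter peak in the second list, against 7.95% of protein-coding genes. The same count was 1 of 5 (Cd79b) from Tet2-/- to Ep300Δ/ΔTet2-/- cells, against 10.2%, and 1 of 6 (Blnk) from WT to Tet2-/- cells, against 6.08%. A different gene was lost in each comparison, and with counts this small a share near or well above these backgrounds could not be told apart. No region nearest to a start of the 9 genes lost H3K27ac in both Ep300 comparisons while being present in both WT and Tet2-/- cells, and 3 regions nearest to other genes in the windows did. Over the genome, such regions were 6.54% of 35252. With 14 regions nearest these genes and 30 in the windows, counts of 0 and 3 could not be told apart from that share.

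By region, 9 of the 26 WT H3K27ac regions in the windows, or 34.6% (exact Clopper-Pearson 95% CI, 17.2%–55.7%), had no peak in Ep300Δ/Δ cells, against 39.7% of the whole WT list. From Tet2-/- to Ep300Δ/ΔTet2-/- cells it was 11 of 22, or 50% (28.2%–71.8%), against 37.8%. Between WT and Tet2-/- cells it was 8 of 26, or 30.8% (14.3%–51.8%), against 35.6%, and between Ep300Δ/Δ and Ep300Δ/ΔTet2-/- cells 10 of 19, or 52.6% (28.9%–75.6%), against 31.2%. The interval held the share of the whole list in all 4 comparisons as deposited, and the intervals cover counting error alone. With lists of equal size by −log10 q, the shares in this order were 11.8% (2 of 17) against 24.1%, 20% (2 of 10) against 23.5%, 47.1% (8 of 17) against 22.3%, and 47.1% (8 of 17) against 21.4% of the whole lists cut alike. The interval of the last pair (23.0%–72.2%) lay above the whole list under that setting. The last also did so with peaks within 500 bp counted as present (47.4%, 24.4%–71.1%, against 21.3%). Of the 6 WT peaks nearest these genes with a fold enrichment under the median of the list, 2 had no peak in Ep300Δ/Δ cells, against 65.8% of all such WT peaks. The same count was 5 of 7 against 61.6% from Tet2-/- to Ep300Δ/ΔTet2-/- cells, 4 of 6 against 57.9% from WT to Tet2-/- cells, and 4 of 5 against 49.4% from Ep300Δ/Δ to Ep300Δ/ΔTet2-/- cells. The share was thus below the background in 1 comparison and above it in 3, on 5 to 7 peaks each.

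H3K4me3 regions were lost in the windows at 25.9% (11.1%–46.3%, 7 of 27) from WT to Ep300Δ/Δ cells, against 15.4%, and at 10.5% (1.30%–33.1%, 2 of 19) from Tet2-/- to Ep300Δ/ΔTet2-/- cells, against 13.3%. From WT to Tet2-/- cells they were lost at 39.3% (21.5%–59.4%, 11 of 28), against 11.1%. With 100 kb in place of 30 kb on each side it was 22.1% (12.9%–33.8%, 15 of 68). From Ep300Δ/Δ to Ep300Δ/ΔTet2-/- cells they were lost at 28.6% (11.3%–52.2%, 6 of 21), against 10.3%. In these last 2 comparisons the interval lay above the share of the whole list. From WT to Tet2-/- cells it also did under 7 of 8 other settings, each set against the whole list under the same setting, and from Ep300Δ/Δ to Ep300Δ/ΔTet2-/- cells under 5 of 8. In the latter, the interval held the share of the whole list with peaks of a −log10 q of at least 5 (23.5%, 6.81%–49.9%, against 8.85%) and with 100 kb on each side (19.3%, 10.0%–31.9%, against 10.3%). From WT to Ep300Δ/Δ cells the interval, which held the share, lay above it under 3 of 8, among them a −log10 q of at least 5 (36%, 18.0%–57.5%, against 17.8%). Over the regions nearest to a start of the 9 genes, 11 of 17 were lost from WT to Tet2-/- cells, 5 of 9, or 55.6% (21.2%–86.3%), from Ep300Δ/Δ to Ep300Δ/ΔTet2-/- cells, 7 of 16, or 43.8% (19.8%–70.1%), from WT to Ep300Δ/Δ cells, and 1 of 6 from Tet2-/- to Ep300Δ/ΔTet2-/- cells, so that 3 of the 4 intervals lay above the whole list. The 11 regions lost from WT to Tet2-/- cells were below the median fold enrichment of the WT list, and none of the 13 regions in the windows at or above the median was lost, where the whole list lost 0.0845%.

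**Figure D5:**
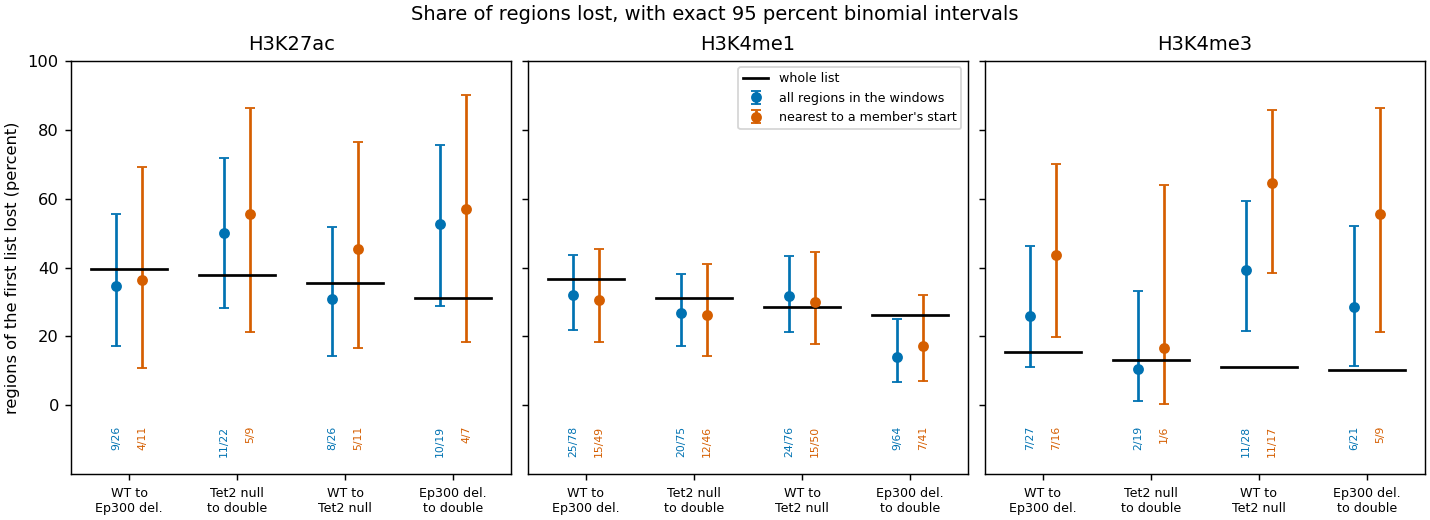
Percent of the regions of the first list that had no overlapping peak in the second, for 3 marks and 4 comparisons, over all regions in the windows and over those nearest to a start of the 9 genes, with exact 95% binomial intervals and counts lost over counts in the first list; black lines give the whole list. For H3K4me3, both intervals lie above the line from WT to Tet2-/- cells (39.3% and 64.7% against 11.1%) and from Ep300Δ/Δ to Ep300Δ/ΔTet2-/- cells (28.6% and 55.6% against 10.3%), although in the latter comparison the interval held the line with windows of 100 kb. From WT to Ep300Δ/Δ cells only the interval of the regions nearest these genes does, the H3K27ac intervals hold their lines, and the H3K4me1 interval over all regions in the windows lies below its line from Ep300Δ/Δ to Ep300Δ/ΔTet2-/- cells.

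H3K4me1 was found in every window in all 4 genotypes. No peak was nearest to the Cd79a start, and 1 was nearest to a Vpreb1 start in each of WT, Ep300Δ/Δ, and Ep300Δ/ΔTet2-/- cells. The windows held 91 H3K4me1 peaks in WT, 69 in Ep300Δ/Δ, 80 in Tet2-/-, and 87 in Ep300Δ/ΔTet2-/- cells, which merged to 108 regions. Of these, 43, or 39.8% (30.5%–49.7%), were present in all 4 genotypes, against 34.4% of regions over the whole genome. Foxo1 had 20 regions nearest to its start, 17 of them outside promoters, with the strongest 74326 bp into the gene (chr3:52342662-52344306), above 96.1% of the list in WT, 97.1% in Ep300Δ/Δ, 99.1% in Tet2-/-, and 91.3% in Ep300Δ/ΔTet2-/- cells. No H3K27ac peak overlapped it in any list. The H3K4me1 region between Igll1 and Vpreb1 (chr16:16864615-16867052), which holds regions A and B, was 2438 bp long and above 95.5%, 70.5%, 99.7%, and 75.6% of the lists. At that place the H3K4me1 rank was highest in Tet2-/- cells and the H3K27ac rank highest in WT cells.

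At Ebf1, Pax5, Igll1, and Blnk, H3K4me1 was present in the genotypes without promoter H3K4me3. The Blnk upstream region of H3K4me1 (chr19:40997899-40999935) was above 95.1% of the WT list, 54.1% in Ep300Δ/Δ, 65.9% in Tet2-/-, and 75.6% in Ep300Δ/ΔTet2-/- cells. Ebf1 had 11 H3K4me1 regions in its window, of which 4 were in all genotypes, and the region at its first start (chr11:44616686-44617515) was present in WT, Tet2-/-, and Ep300Δ/ΔTet2-/- cells, above 41.9%, 13.8%, and 32.5% of the lists, and absent from the Ep300Δ/Δ list. Pax5 had 5 H3K4me1 peaks in WT, 5 in Ep300Δ/Δ, 6 in Tet2-/-, and 8 in Ep300Δ/ΔTet2-/- cells. Cd79b had a region at chr11:106318367-106320021 in all 4 lists, above 87.1%, 73.3%, 77.1%, and 65.7%. Cd79a had a promoter H3K4me1 peak in WT cells alone, above 8.62% of the list, with no H3K27ac or H3K4me3 promoter peak.

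The share of H3K4me1 regions lost in the windows was 32.1% (21.9%–43.6%, 25 of 78) from WT to Ep300Δ/Δ cells, against 36.7% over the list, and 26.7% (17.1%–38.1%, 20 of 75) from Tet2-/- to Ep300Δ/ΔTet2-/- cells, against 31.1%. From WT to Tet2-/- cells it was 31.6% (21.4%–43.3%, 24 of 76), against 28.6%. From Ep300Δ/Δ to Ep300Δ/ΔTet2-/- cells it was 14.1% (6.64%–25.0%, 9 of 64), against 26.2%. The intervals of the first 3 comparisons held the share of the whole list, and that of the last lay below it. It lay below under 1 of 8 other settings and held the share under 7, among them 100 kb on each side (22.1%, 16.1%–29.0%, 38 of 172). With 100 kb, the shares of the first pair of comparisons, 26.8% (20.5%–33.8%) and 23.4% (17.2%–30.5%), lay below those of the whole list.

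Active enhancers, taken as H3K27ac peaks that overlapped H3K4me1 of the same genotype and no promoter, were 3 of the 26 H3K27ac peaks in the windows in WT, 2 of 20 in Ep300Δ/Δ, 4 of 24 in Tet2-/-, and 1 of 12 in Ep300Δ/ΔTet2-/- cells. Over the whole lists the shares were 32.0%, 22.4%, 26.7%, and 20.3%. With lists of equal size the counts were 2, 1, 1, and 1, and with a −log10 q of at least 5 they were 2, 1, 2, and 1, so the higher count in Tet2-/- than in WT cells did not hold. Of the 10, 3 were nearest to a start of the 9 genes, namely the Blnk upstream region in WT cells and the Ebf1 intronic and Igll1 downstream regions in Tet2-/- cells. The region at chr19:41016129-41016503, in the window of Blnk and nearest to Dntt, the terminal transferase gene, was active in all 4 genotypes, above 46.3%, 52.6%, 22.8%, and 58.5% of the lists.

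Other genes of the lineage were counted by lists, at promoters. Of 12 other B-cell transcription factors, 11 had an H3K4me3 promoter peak in every genotype, and 8, 8, 7, and 6 had an H3K27ac promoter peak in WT, Ep300Δ/Δ, Tet2-/-, and Ep300Δ/ΔTet2-/- cells. Pou2af1, a coactivator of B cells, had an H3K27ac promoter peak in WT cells alone, and Spib had one in Ep300Δ/Δ cells alone. Ikzf1, Bach2, Bcl11a, Irf8, Ets1, and Tcf12 had one in every list. Of 8 other early B-lineage receptor and recombination genes, 7, 6, 5, and 5 had H3K4me3 and 4, 5, 4, and 3 had H3K27ac. Il7r, the receptor for the cytokine that early B cells need, had H3K4me3 in WT cells alone, and Rag2, of the recombinase, had it in WT and Ep300Δ/Δ cells. Flt3, Dntt, Cd24a, Crlf2, and Lax1 had it in every genotype, and Rag1 in none.

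Among the markers of other cell types, 1 gene, the erythroid gene Alas2, had a WT promoter H3K4me3 peak and none in Tet2-/- cells. Among 8 genes each, H3K4me3 promoter peaks were at 8 in every genotype for stem and progenitor genes and for myeloid genes, at 8, 8, 7, and 8 for erythroid genes, at 3, 5, 5, and 4 for T-cell genes, and at 4, 5, 5, and 5 for mature B-cell surface genes. H3K27ac promoter peaks were at 7, 7, 6, and 7 stem and progenitor genes, 8, 8, 5, and 4 myeloid genes, 8, 6, 7, and 6 erythroid genes, 3 T-cell genes in every genotype, and 2, 3, 2, and 2 mature B-cell surface genes. Ms4a1, Cd4, Cd8a, and Cd3e, which define mature B and T cells, had no H3K27ac or H3K4me3 promoter peak in any list, whereas the T-cell genes Cd3d, Cd2, and Lck and the mature B-cell surface genes Cd37 and Cd180 had both in every list. Promoter H3K4me3 of the 9 genes (8 in WT and 5 in Tet2-/- cells) and of the early B-lineage list (7 and 5) was at fewer genes in Tet2-/- cells. That of the other B-cell transcription factors (11 and 11) and mature B-cell surface genes (4 and 5) was not. Myeloid H3K27ac (8 and 5) was also at fewer genes, as was stem and progenitor (7 and 6) and erythroid (8 and 7) H3K27ac, whereas myeloid H3K4me3 was at 8 in both. The part of the myeloid change in the result was not tested. Whether the share of B-lineage cells among the Lin- cells differed between the genotypes was not tested.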

How the data were processed

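ChIP-Seq was performed on Lin- bone marrow cells, from chromatin of which 5 µg was used a library per the labels. The submitters' processing notes name cutadapt 1.15, BWA 0.7.13, Picard, MACS2 2.1.1.20160309, and mm10. The deposited lists give, per peak, the fold enrichment over H3 input (a linear ratio) and −log10 of the p and q values, as the authors' MACS2 wrote them, 1 library a list. The lowest −log10 q in a list was 0 to 0.53, so the lists hold peaks weaker than the stated q of 0.05. Depth is unknown, and nothing in the sources says that the lists were scaled to the Drosophila spike-in. Gene bodies were extended by 30 kb, and 2 lists were merged with overlaps of at least 1 bp, using Python 3.11.15, pandas 2.3.3, and bedtools 2.31.1. Promoters were 3000 bp on each side of any annotated start. A merged region with peaks of the first list alone was lost. Shares carry exact Clopper-Pearson 95% intervals. These cover counting error only, and neighboring peaks are not independent. The scripts were tested on simulated data. The 8 samples without a list (H3 and H3K27me3) were not analysed here. The gene lists and tests, like the genes, were chosen with earlier results of these data known. The rule for naming H3K27ac regions was each gene's strongest peak per list at and outside promoters, any region nearest to its start lost in both Ep300 comparisons, and the strongest found in 1 genotype alone. Other regions, and all H3K4me3 and H3K4me1 regions, were chosen after their values were seen. The comparisons of H3K4me3 and H3K4me1 from WT to Tet2-/- and from Ep300Δ/Δ to Ep300Δ/ΔTet2-/- cells, the H3K4me3 promoter counts, and the weak strata of 35% were added after seeing the data. The list of other receptor signaling genes is not reported here.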

Additional observations from a re-analysis of the deposited data

Results flagged for a closer look

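For 10 counts of peaks in a window, the change from WT to Ep300Δ/Δ cells and the change from Tet2-/- to Ep300Δ/ΔTet2-/- cells went in opposite directions. With 1 library a genotype, the difference was not tested in any of them. Counts are in the order WT, Ep300Δ/Δ, Tet2-/-, Ep300Δ/ΔTet2-/-, and the difference is the second change minus the first. At Ebf1, H3K4me1 peaks were 9, 5, 7, and 8 (difference 5), and H3K4me3 peaks were 5, 2, 0, and 1 (difference 4). In the Cd79a window, where the peaks were nearest to other genes, H3K27ac peaks were 5, 6, 5, and 2 (difference -4), H3K4me1 peaks were 10, 6, 5, and 6 (difference 5), and H3K4me3 peaks were 3, 5, 5, and 4 (difference -3). H3K4me1 peaks were 15, 10, 11, and 15 in the Vpreb1 window (difference 9) and 10, 6, 7, and 11 in the overlapping Igll1 window (difference 8), so these share peaks. At Foxo1, H3K4me1 peaks were 17, 13, 12, and 13 (difference 5), and H3K4me3 peaks were 2, 1, 2, and 3 (difference 2). At Blnk, H3K27ac peaks were 5, 4, 1, and 2 (difference 2).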

How the results depend on the processing

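Of 96 alternative shares lost, 78 stayed within the counting interval of the value reported and 18 moved. Of 36 alternative counts of genes or enhancers, which have no interval, 29 stayed within 1.5 times the count reported and 7 moved. With lists of equal size the order of some counts turned: promoter H3K27ac was at 4 genes in WT and 5 in both Ep300Δ/Δ and Ep300Δ/ΔTet2-/- cells, and active enhancers were 2 in WT and 1 in Tet2-/- cells. No paired analysis was possible because each genotype had 1 library a mark, and leaving out a library was impossible for the same reason. Keeping first-list peaks at or above the median fold enrichment lowered the share lost: for H3K27ac to 15.4% (WT to Ep300Δ/Δ) and 12.5% (Tet2-/- to Ep300Δ/ΔTet2-/-), for H3K4me1 to 13.5%, 9.09%, from WT to Tet2-/- cells, 13.5%, and from Ep300Δ/Δ to Ep300Δ/ΔTet2-/- cells, 5.88%, and for H3K4me3 to 0% in the same 4 comparisons. Lists cut to equal size by −log10 q gave 11.8% and 20% for H3K27ac. Gene bodies without extension gave 75% (3 of 4, 19.4%–99.4%) for H3K27ac from Tet2-/- to Ep300Δ/ΔTet2-/- cells, and this interval held the 37.8% of the whole list. Counting peaks within 500 bp as present gave 17.9% and, from WT to Tet2-/- cells, 17.1% for H3K4me1, and a −log10 q of at least 5 gave 38.2% from Tet2-/- to Ep300Δ/ΔTet2-/- cells. The whole lists under these settings lost 25.1%, 18.7%, and 44.1%. Regions nearest to a start of the 9 genes gave 64.7% for H3K4me3 from WT to Tet2-/- cells and 55.6% from Ep300Δ/Δ to Ep300Δ/ΔTet2-/- cells. Genes with promoter H3K27ac fell to 3 in Ep300Δ/Δ cells with a −log10 q of at least 5 and to 3 in Tet2-/- cells with equal lists. Active enhancers became 1 in Ep300Δ/Δ cells under both settings, 2 and 1 in Tet2-/- cells, and 2 in Ep300Δ/ΔTet2-/- cells with promoters of 1500 bp. Genes with promoter H3K4me3 stayed at 8 in WT and 4 in Ep300Δ/ΔTet2-/- cells under the 3 alternatives run, and were 6 to 7 in Ep300Δ/Δ and 4 to 5 in Tet2-/- cells. Why a value moved was not tested, beyond the smaller lists that these settings leave.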
